A study of Mus musculus with 2 samples.

Results

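Tumour macrophages that carried transcripts of both Lyve1 and Cd163 were described in 2 droplet single-cell RNA libraries of RENCA tumours, grown from a mouse kidney cancer cell line in BALB/c mice. The cells were chosen by measured values: at least 3000 unique molecular identifier counts (UMIs, each standing for 1 captured RNA molecule), at most 20% of UMIs from mitochondrial genes, at least 1 Csf1r UMI, at least 2 UMIs each of Lyve1 and Cd163, and at most 3 UMIs of Mki67 and Top2a together. In all, 969 cells met these limits out of 11521 cells with Csf1r and 3000 UMIs, and out of 19451 cell barcodes. The library labelled SMYD3 knockdown held 406 of them and the library labelled WT 563. Tumour cells depleted of the methyltransferase SMYD3, or control tumour cells, had been placed orthotopically and CD45-positive leukocytes sorted from the tumours, according to the series' design text, whereas the records of the samples give epithelial cell as the type. The labels used here give no number of animals, no pooling, no knockdown agent and no time of growth. There was 1 library a group, so no difference between libraries could be tested, and every interval below covers counting error only. Where 2 values stand together, the first belongs to the library labelled SMYD3 knockdown and the second to the library labelled WT, and levels are in CPM, a gene's UMIs per 1000000 UMIs of the group.

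LYVE1 is a hyaluronan receptor shared by lymphatic endothelium and a class of tissue macrophages, and CD163 takes up haemoglobin bound to haptoglobin. Macrophages with much LYVE1 and little MHC class II are known to lie along blood vessels in many organs, where they clear debris and supply trophic factors, while monocyte-derived macrophages carry CCR2 and more MHC class II. The transcription factor MAF is known to sustain much of the gene programme of such perivascular macrophages. CCL8 is a chemokine of the monocyte chemoattractant group, CLEC10A a galactose-binding lectin, selenoprotein P (Selenop) a selenium carrier and EDNRB the endothelin receptor type B.

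The stretches before the start sites of Ccl8, Ednrb and Gja1 are shown because these genes were among those with the largest excess in the Lyve1 Cd163 cells and hold a MAF half-site. They are RefSeq sequences of GRCm38.p6, 250 bases long, written along the gene's own strand, and capitals mark TGCTGA or its reverse complement. The Ccl8 stretch is chr11:82114935-82115184, plus strand, the Ednrb stretch chr14:103843702-103843951, minus strand, and the Gja1 stretch chr10:56377050-56377299, plus strand.
Ccl8: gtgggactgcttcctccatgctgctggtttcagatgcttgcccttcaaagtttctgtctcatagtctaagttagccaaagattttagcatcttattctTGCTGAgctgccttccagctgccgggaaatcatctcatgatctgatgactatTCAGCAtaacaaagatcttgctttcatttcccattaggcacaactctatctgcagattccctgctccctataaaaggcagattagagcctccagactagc
Ednrb: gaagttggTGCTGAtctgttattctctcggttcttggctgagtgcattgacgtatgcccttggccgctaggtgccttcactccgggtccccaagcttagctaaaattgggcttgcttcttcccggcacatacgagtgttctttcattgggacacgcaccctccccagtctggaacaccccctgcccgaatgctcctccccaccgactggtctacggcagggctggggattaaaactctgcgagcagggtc
Gja1: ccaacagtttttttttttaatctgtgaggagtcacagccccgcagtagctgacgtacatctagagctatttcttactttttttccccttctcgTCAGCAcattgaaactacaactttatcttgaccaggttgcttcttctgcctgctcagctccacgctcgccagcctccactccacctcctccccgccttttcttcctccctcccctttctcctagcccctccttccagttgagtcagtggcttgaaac
Counted from the RefSeq starts, the matches began 152 and 100 bases before Ccl8, 242 bases before Ednrb and 157 bases before Gja1. The Gja1 match and the nearer Ccl8 match lay on the reverse strand. GENCODE, used for the gene positions below, places some starts elsewhere. The Ednrb stretch lies inside the GENCODE span of that gene, chr14:103814625-103844402, and the GENCODE span of Gja1 starts at 56377330. Over windows from 250 bases before to 50 after a start site, TGCTGA was found on either strand in 19.5% of 32851 RefSeq windows. It was found for 7 of the 14 genes with a window among the 15 named below as higher in the Lyve1 Cd163 cells (Cbr2, Ccdc152, Ccl8, Ednrb, Folr2, Gja1 and Vsig4), and for 1 of 10 with a window among the 15 named as lower (Chil3). Some genes have more than 1 window, and counted as the background was, 8 of 17 windows of the former and 1 of 11 of the latter held it. This motif was chosen for display out of 11 that were counted, after the counts were seen, and a match describes letters only.

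The 6 marker genes set the cells apart unequally from cell to cell. Lyve1 (chr7:110850607-110863239) had a median of 7 and 7 UMIs per cell, with a 5th to 95th percentile of 2 to 35 and 2 to 30.8. Cd163 (chr6:124304656-124330527) had a median of 13 and 12 UMIs and a maximum of 101 and 84. Both are values the rule used. Ccl8 (chr11:82115185-82116799) had a median of 20 and 28 UMIs, and its 95th percentile reached 342 and 285.9. Clec10a (chr11:70156197-70170834) had a median of 7 and 8 UMIs, Selenop (chr15:3268547-3280508) of 30.5 and 33 and Ednrb (chr14:103814625-103844402) of 3 and 3. Selenop was detected in every cell, with a lowest value of 4 and 1 UMIs, while Ednrb had at least 1 UMI in 74.6% and 74.8% of cells. These gene positions are from GENCODE on GRCm38.

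RNA outside cells could add to the share of cells with a Ccl8 UMI, and its part was not tested. With each cell thinned to 1000 UMIs, Ccl8 had a UMI in 64.5% and 76.0% of the Lyve1 Cd163 cells, whose median depth was 14422.5 and 12576 UMIs. It also had a UMI in 37.6% and 62.2% of neutrophils, with a median depth of 1526 and 1488 UMIs. Its mean was 4.24 and 5.56 UMIs in the Lyve1 Cd163 cells against 0.512 and 1.10 in neutrophils. In the same neutrophils, which the rule did not choose, 2.08% and 2.75% had a Lyve1 UMI and 1.39% and 1.30% a Cd163 UMI.

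The label of a tissue macrophage was checked against lists of marker genes. Of 16 macrophage identity genes measured, 13 were higher in both libraries than in the other 5273 and 5279 Csf1r cells of at least 3000 UMIs, with a median log2 difference of 0.48 and 0.56. None of the 16 was 2-fold higher in both libraries, and Csf1r, which the rule used, is among them. Over all 6061 genes measured, 49.1% and 45.2% were higher in the Lyve1 Cd163 cells. Lymphatic endothelium also carries Lyve1. The list of 13 lymphatic and blood endothelium genes summed to 200.1 and 126 CPM, against 116 and 99.5 CPM in the other Csf1r cells, and nearly all of it was podoplanin (Pdpn), at 1209 and 905 UMIs in 60.3% and 42.3% of the Lyve1 Cd163 cells. Of the other genes of the list, Prox1, Flt4, Mmrn1, Ccl21a, Reln, Tek and Cldn5 had 0 UMIs in all 969 cells. A count of 0 in 6210491 and 7487000 UMIs allows a level of up to 0.483 and 0.401 CPM, taking 3 UMIs as the limit. The T and NK cell list summed to 8.05 and 8.68 CPM, the B cell list to 0.805 and 0.534 CPM and the fibroblast list to 5.80 and 6.01 CPM. Epithelial genes summed to 21.9 and 54.5 CPM, led by Cryab, against 97.8 and 131 CPM in the other Csf1r cells. The neutrophil list summed to 208 and 117 CPM, led by S100a9 in the first library, against 392 and 264 CPM in the other Csf1r cells.

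Of the Csf1r cells, 7.15% (95% exact binomial interval 6.49 to 7.85) met the Lyve1 and Cd163 limits in the library labelled SMYD3 knockdown and 9.64% (8.89 to 10.4) in the library labelled WT. The difference was -2.49 percentage points, with a 95% Newcombe interval of -3.50 to -1.48. Of all barcodes the shares were 3.99% and 6.08%. The first library was also deeper in these cells, and thinning every cell to 3000 UMIs before the rule was applied gave 4.37% and 5.40%, a difference of -1.04 points (-2.03 to -0.04). Asking for Lyve1 alone, a choice made after the data were seen, gave 17.4% and 23.0%. The share was lower in the library labelled SMYD3 knockdown in each of these settings, with no replicate to show the spread between tumours. A share of a sort cannot tell fewer cells of 1 kind from more cells of another.

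**Figure D1:**
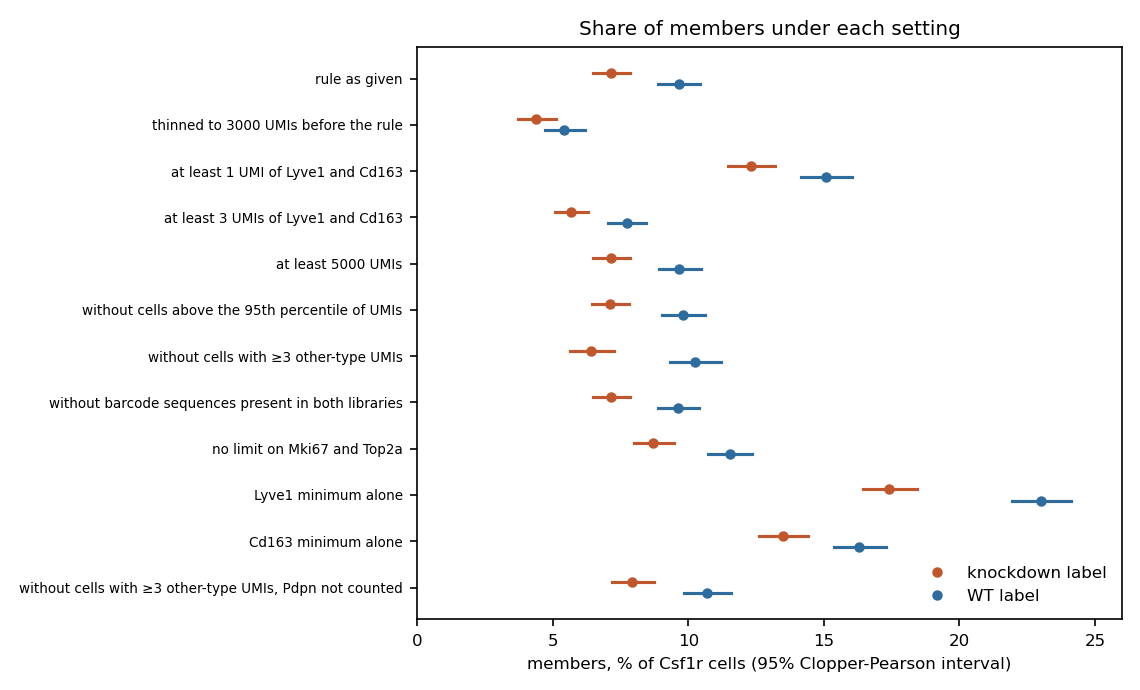
Share of Csf1r cells, in percent, that met the Lyve1 and Cd163 limits, by setting of the rule; each point is 1 library and each bar its 95% exact binomial interval, which covers counting error only. The library labelled SMYD3 knockdown lay below the library labelled WT in each setting, at 7.15% against 9.64% under the rule as stated.

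Of the Lyve1 Cd163 cells, 169 (41.6%) and 144 (25.6%) held at least 3 summed UMIs of the T and NK, B, endothelium, fibroblast or epithelium lists, against 34.4% and 30.4% of the other Csf1r cells. Pdpn is counted among these UMIs and held the most of them in the Lyve1 Cd163 cells, at 1209 and 905 UMIs. A cell past this limit is therefore not shown to be of another type. The rule has no step against doublets. Leaving out every cell with 3 such UMIs, from both the Lyve1 Cd163 cells and the other cells, moved the difference of shares to -3.82 points. In all, 22 barcode sequences occurred in both libraries, 5 of them on Lyve1 Cd163 cells, and leaving them out did not move the shares beyond their intervals.

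Cells at the border of the rule shared part of the pattern. Just inside it, 5 and 5 cells had exactly 2 UMIs of both genes and carried 392 and 1002 CPM of Ccl8. Just outside, 57 and 46 cells had exactly 1 of each and carried 982 and 1325 CPM of Ccl8, and 96 and 130 cells with at least 2 Cd163 UMIs but 1 Lyve1 UMI carried 2250 and 3231 CPM. The 140 and 142 cells with at least 2 Lyve1 UMIs but 1 Cd163 UMI carried 4931 and 2977 CPM, so here the libraries stood in the opposite order. Cells with at least 2 Lyve1 UMIs and no Cd163 UMI, 443 and 639 in number, carried 4413 and 5326 CPM of Ccl8 and 193 and 240 CPM of the MHC class II gene H2-Aa, beside 4665 and 5199 CPM and 185 and 138 CPM in the Lyve1 Cd163 cells. In the 264 and 260 cells with at least 2 Cd163 UMIs and no Lyve1 UMI, Ccl8 stood at 1692 and 1701 CPM and Ednrb at 69.8 and 139 CPM. Where both genes were at 0, in 2839 and 2646 cells, Ccl8 was at 319.9 and 430.3 CPM, the folate receptor gene Folr2 at 71.2 and 67.4 CPM and H2-Aa at 1776 and 1948 CPM. A further 88 and 110 cells that met the rest of the rule were outside it through more than 3 cycling UMIs, and 8 of 1012 and 8 of 906 cells without a Csf1r UMI met the Lyve1 and Cd163 minimum.

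**Figure D2:**
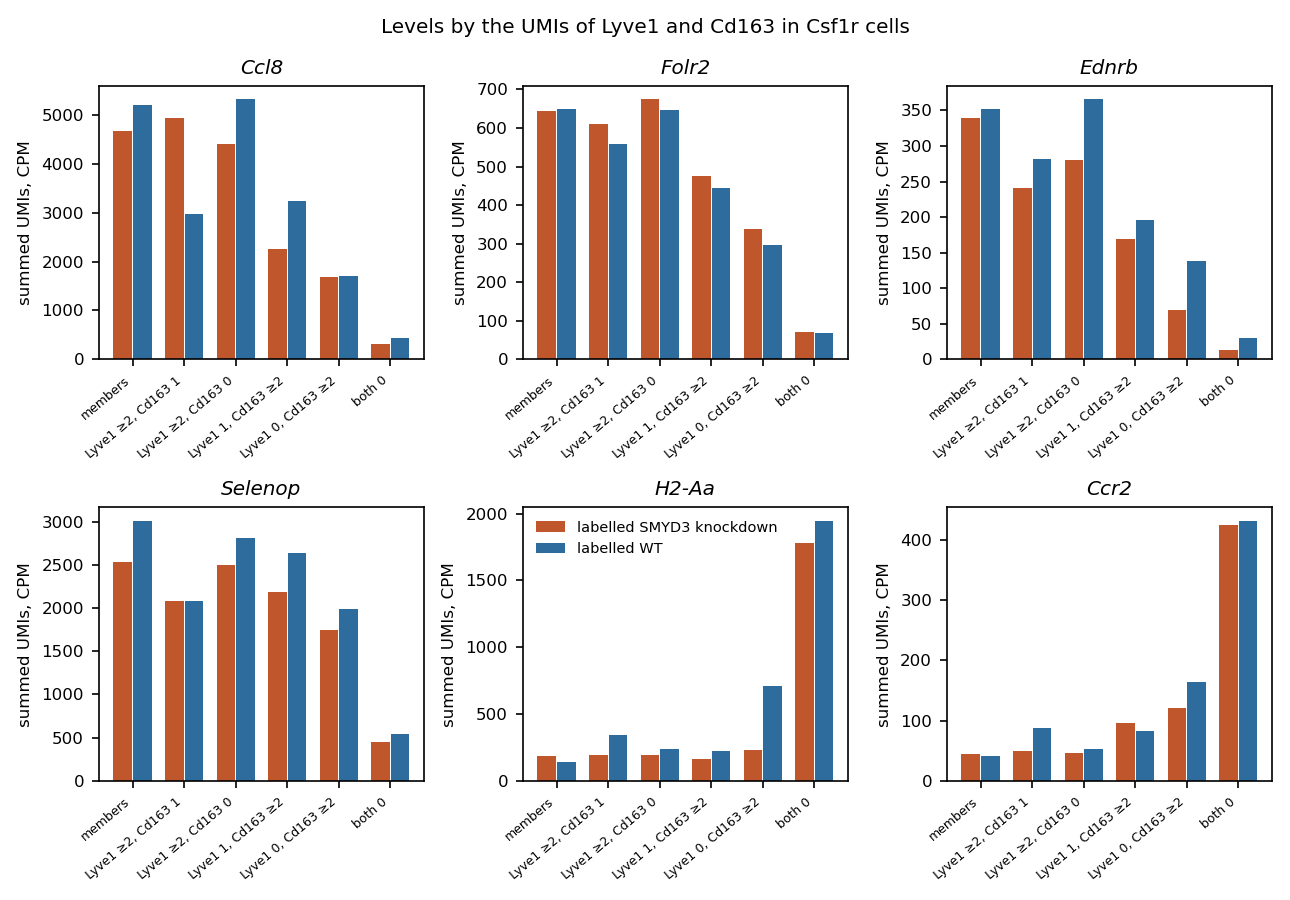
Levels of Ccl8, Folr2, Ednrb, Selenop, H2-Aa and Ccr2, in CPM from 0, in Csf1r cells classed by their Lyve1 and Cd163 UMIs; each bar is 1 class in 1 library. Cells with Lyve1 but no Cd163 UMI stood at 4413 and 5326 CPM of Ccl8, close to the cells that met the rule, and cells with neither gene at 319.9 and 430.3 CPM.

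Against the other Csf1r cells, 125 of 6061 genes measured (2.06%) were at least 2-fold higher in the Lyve1 Cd163 cells in both libraries and 266 (4.39%) at least 2-fold lower. The cells were chosen on this contrast, so these counts and the levels that follow describe the choice and carry no test. Ccl8 was at 4665 and 5199 CPM against 1092 and 1363 CPM, 4.27-fold and 3.82-fold higher. Clec10a was at 853 and 1126 CPM against 201 and 256 CPM, 4.24-fold and 4.40-fold higher. Ednrb was at 339.9 and 353 CPM against 62.9 and 98.2 CPM, which is 5.41-fold (5.13 to 5.69) and 3.59-fold (3.43 to 3.76) higher, so its excess was larger in the first library through the lower level of the other cells. Selenop was at 2535 and 3012 CPM against 851 and 1027 CPM. Ccdc152, whose gene overlaps Selenop on the other strand, was at 356 and 354 CPM against 106 and 121 CPM, and reads of the pair may not be told apart.

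Among the other named genes with an excess, Folr2 was at 645 and 649.8 CPM against 203 and 208 CPM. Vsig4, a receptor for complement fragments, was at 176 and 188 CPM against 51.0 and 40.8 CPM. Gas6, a bridge between dying cells and TAM receptors, was at 769 and 735 CPM against 237 and 241 CPM, and insulin-like growth factor 1 (Igf1) at 148 and 149.7 CPM against 38.4 and 50.5 CPM. Gja1, which encodes the gap junction protein connexin 43, was at 123 and 107 CPM against 29.3 and 29.6 CPM. Cyp26b1, which degrades retinoic acid, was at 106 and 80.5 CPM against 27.8 and 18.9 CPM. Cbr2, a carbonyl reductase, was at 657 and 539 CPM against 179 and 166 CPM, and Npl, an N-acetylneuraminate lyase, at 563 and 409.6 CPM against 176 and 129 CPM. Stard8 and Pgap6 were between 3.53 and 3.94 times the level of the other cells. Between the libraries, the ratios of the first to the second for these genes ran from 0.757 for Clec10a to 1.38 for Npl. Over 5970 genes in the Lyve1 Cd163 cells, the 5th to 95th percentile of the log2 difference was -0.35 to 0.31. Clec10a and Npl lay outside that range.

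Among the genes named as lower, Car4, a membrane carbonic anhydrase gene, was at 4.19 and 2.80 CPM against 122 and 78.9 CPM, or 0.0344 and 0.0356 times the level of the other cells. The monocyte chemokine receptor gene Ccr2 was at 44.0 and 40.3 CPM against 300.1 and 310.1 CPM, and Vcan, for the matrix proteoglycan versican, at 54.3 and 50.8 CPM against 415 and 423 CPM. H2-Aa was at 185 and 138 CPM against 1157 and 1350 CPM, H2-Ea at 129.5 and 115 CPM against 939.6 and 1134 CPM, and H2-DMb1, whose product helps to load peptides, at 9.50 and 10.6 CPM against 114 and 126 CPM. Lipoprotein lipase (Lpl) was at 33.8 and 35.0 CPM against 232 and 293 CPM. Chil3, a chitinase-like lectin gene, was at 41.5 and 19.2 CPM against 279 and 192 CPM, haptoglobin (Hp) at 16.6 and 12.2 CPM against 125 and 130.1 CPM and Lsp1, a leukocyte actin-binding protein gene, at 19.5 and 16.3 CPM against 182 and 186 CPM. Ear2 belongs to a family of near-identical ribonuclease genes and is uncertain, at 5.47 and 11.0 CPM against 91.0 and 144 CPM. Inhba, for the activin A subunit, had 2 and 49 UMIs in the Lyve1 Cd163 cells, and 51.6 and 70.7 CPM in the other cells. Napsa was at 4.67 and 5.88 CPM against 69.6 and 65.7 CPM. The cell cycle genes Ube2c and Prc1 were also lower, which the limit on Mki67 and Top2a bears on. Over the other settings run, their log2 differences ranged from -3.14 to -0.14 and from -2.87 to -0.02, so they nearly vanished in some setting. These settings include a comparison with other cells held to the same cycling limit.

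**Figure D3:**
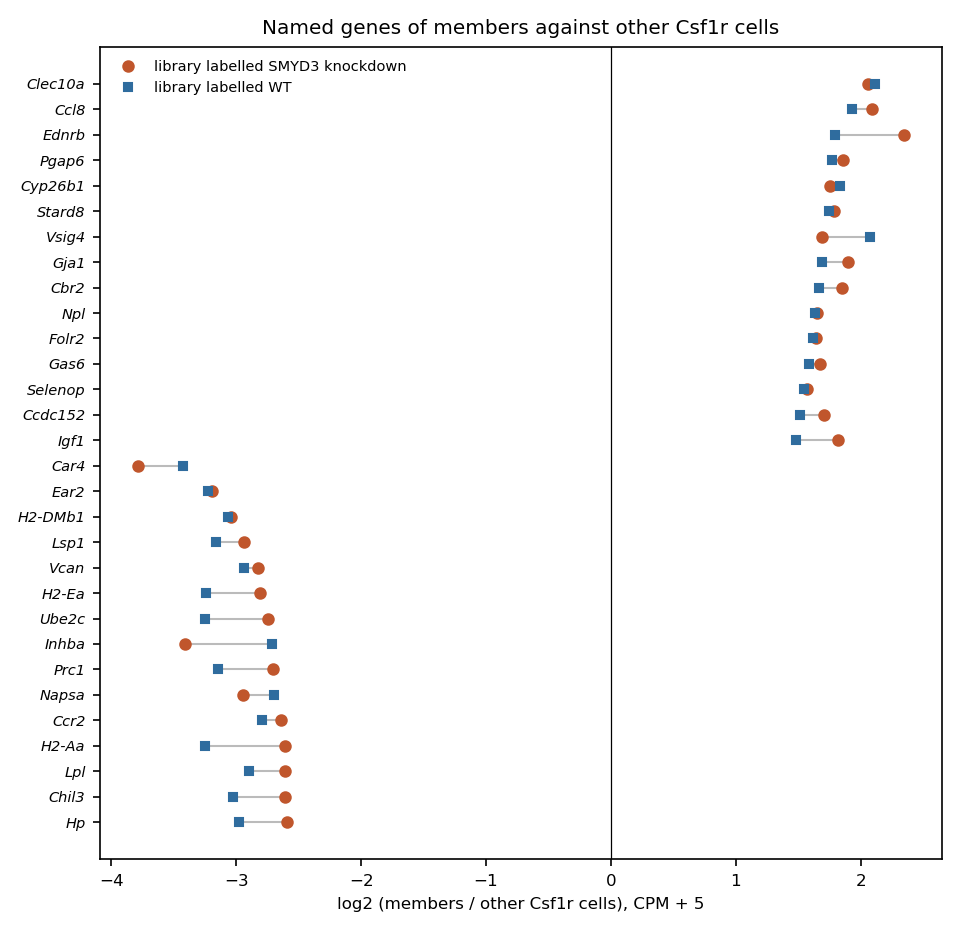
Log2 ratio of the level in the Lyve1 Cd163 cells to that in the other Csf1r cells for the 15 genes named as higher and the 15 named as lower, on CPM plus 5; each dot is 1 library. Dots of the same gene lay on the same side of 0 in both libraries, because the genes were named for that.

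The list of 28 resident macrophage genes, from which the rule used none, had 24 genes measured, of which 16 were at least 2-fold higher in both libraries and 0 at least 2-fold lower. This list was chosen with earlier results of these data known and holds the marker gene Ccl8, so it is no independent check. Its median log2 difference was 1.37 and 1.33, beside -0.01 and -0.04 over all 6061 genes. The mannose receptor gene Mrc1 was at 3675 and 3537 CPM against 1344 and 1363 CPM, and F13a1, a coagulation factor subunit, at 2395 and 2435 CPM against 905 and 917 CPM. The scavenger receptor gene Stab1 was at 934 and 912 CPM against 395 and 356 CPM. Mgl2, at 119 and 88.1 CPM, and Ccl24, at 161 and 112 CPM, belong to this list and did not reach a 2-fold difference. Mrc1 had a UMI in 94.6% and 92.7% of the Lyve1 Cd163 cells thinned to 1000 UMIs and in 8.93% and 9.99% of neutrophils.

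Scavenging, iron and complement genes differed gene by gene. Beside the counts below, 2.06% of all 6061 genes were 2-fold higher in both libraries and 4.39% 2-fold lower. Of 15 scavenger and clearance receptor genes measured, 4 were 2-fold higher, of which Lyve1 and Cd163 are the rule's own, and 3 were 2-fold lower: Clec7a, for the beta-glucan receptor dectin-1, at 33.0 and 30.9 CPM against 154 and 146 CPM, Axl at 23.2 and 17.8 CPM against 72.3 and 63.8 CPM, and Havcr2 at 9.50 and 12.3 CPM against 38.4 and 28.0 CPM. Of 15 haem and iron genes, 3 were 2-fold higher and 0 lower. Ferroportin (Slc40a1), the iron exporter, was at 64.6 and 52.9 CPM against 24.1 and 25.6 CPM, and ceruloplasmin (Cp), the ferroxidase that works beside it, at 132 and 143 CPM against 60.7 and 58.0 CPM. Haem oxygenase 1 (Hmox1) was at 1750 and 1350 CPM, 1.55-fold and 1.47-fold above the other cells. Of 13 complement genes, 3 were 2-fold higher and 2 lower, and C4b was at 202 and 218 CPM against 71.8 and 85.9 CPM. C3 stood at 19.0 and 21.0 CPM against 40.4 and 45.4 CPM, and the integrin gene Itgax at 3.38 and 2.14 CPM against 26.4 and 36.8 CPM.

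Among secreted signals, Ccl8 was the 1 gene of 10 measured CC chemokines that was 2-fold higher. Ccl17 was the 1 that was 2-fold lower, at 16.3 and 9.22 CPM against 105 and 146 CPM. The shares of all 6061 genes, beside these and the next counts, were 2.06% higher and 4.39% lower. The neighbouring monocyte chemoattractants Ccl7, at 2991 and 2668 CPM, and Ccl12, at 5690 and 4035 CPM, were 1.43-fold to 1.78-fold above the other cells, and Ccl2, at 4089 and 3294 CPM, 1.02-fold and 1.09-fold. Of 13 growth factor genes, 4 were 2-fold higher (Igf1, Gas6, Pdgfc and the co-receptor gene Nrp1) and 2 lower. Pdgfc was at 88.7 and 103 CPM against 29.1 and 32.6 CPM, and the angiogenic factor gene Vegfa at 4.67 and 4.67 CPM against 23.1 and 30.8 CPM. Of 4 endothelin and vasoactive genes measured, Ednrb alone was 2-fold higher. Its ligand gene Edn1 had 2.42 and 6.28 CPM in the Lyve1 Cd163 cells, and the type A receptor gene Ednra had 0 UMIs. Of 11 matrix protease genes, 2 were higher, Timp2 at 790.3 and 899 CPM against 311 and 395 CPM and cathepsin K (Ctsk) at 141.5 and 119.5 CPM against 33.2 and 51.3 CPM, and 3 were lower, among them Mmp12, the macrophage elastase gene, at 280.3 and 175 CPM against 845 and 917 CPM.

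Of 26 transcription factor genes, 1 was 2-fold higher and 2 were lower, beside 2.06% and 4.39% of all 6061 genes. Counts this small say little about the list. Maf was at 1709 and 1793 CPM against 748 and 769 CPM. Cebpd, for C/EBP delta, was 1.77-fold and 1.85-fold above the other cells. Id2 and Bhlhe40 were the lower pair, Bhlhe40 at 72.0 and 57.6 CPM against 171 and 194 CPM. Of 14 alternative activation genes, 5 were higher (Mrc1, Clec10a, Folr2, F13a1 and the interleukin-4 receptor gene Il4ra, at 349 and 343 CPM against 152 and 148 CPM) and 3 lower (Chil3, Ccl17 and Tgm2), so this list had no single direction, with a median log2 difference of 0.28 and -0.35.

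Of 12 monocyte genes, 10 were 2-fold lower and 0 higher, with a median log2 difference of -1.26 and -2.21. Of 8 MHC class II genes, 7 were lower, with a median of -2.34 and -2.81; the exception, Ifi30, is a thiol reductase of the antigen-processing pathway, at 958 and 921 CPM against 784 and 687 CPM. Of 20 hypoxia and glycolysis genes, 19 were lower in both libraries and 6 of them 2-fold, with a median of -0.66 and -0.91. Of 16 cholesterol synthesis genes, 15 were lower in both libraries and 1 of them 2-fold. Beside these counts, 49.1% and 45.2% of all 6061 genes were higher in the Lyve1 Cd163 cells, and 4.39% were 2-fold lower in both libraries. Of 12 cholesterol efflux and LXR genes measured, 9 were higher in both libraries and 2 of them 2-fold: Mylip, which degrades the LDL receptor, and the phospholipid transfer protein gene Pltp, at 144 and 219 CPM against 68.8 and 103 CPM. Of 16 lipid-associated macrophage genes, 7 were 2-fold lower and 0 higher, and Spp1, osteopontin, was at 904 and 631 CPM against 3755 and 2712 CPM while Trem2 was at 380 and 391 CPM against 285 and 263 CPM.

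Set beside 244 and 225 other cells with at least 2 UMIs each of Cx3cr1 and Vcam1, 123 of 5899 genes (2.09%) were 2-fold higher in the Lyve1 Cd163 cells in both libraries and 119 (2.02%) lower. Ednrb was at 12.1 and 23.1 CPM in the Cx3cr1 Vcam1 cells, 28.1-fold and 15.3-fold below the Lyve1 Cd163 cells, and Gja1 was at 7.44 and 4.27 CPM. Ccl8 was at 907 and 1236 CPM in the Cx3cr1 Vcam1 cells and Folr2 at 189 and 215 CPM. Selenop, at 1664 and 1731 CPM, and Mrc1, at 1639 and 1746 CPM, were nearer, and C1qa was higher in the Cx3cr1 Vcam1 cells, at 8028 and 7673 CPM against 6259 and 6948 CPM. H2-Aa was at 1294 and 1305 CPM in the Cx3cr1 Vcam1 cells. Beside 1371 and 1159 other cells with at least 2 UMIs each of Arg1 and Spp1, 201 of 5929 genes (3.39%) were 2-fold higher and 240 (4.05%) lower. Clec10a was at 101 and 108 CPM in the Arg1 Spp1 cells, Ccl8 at 552 and 701 CPM and Selenop at 668 and 703.5 CPM. Vcam1 was at 33.5 and 35.5 CPM there against 199 and 255 CPM in the Lyve1 Cd163 cells, while Trem2, at 352 and 335 CPM, was close to them. The 137 cells that met both pairs of limits were left out of both groups.

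The Lyve1 Cd163 cells were not uniform. The Fano factor, the variance of UMIs per cell over their mean after thinning to 3000 UMIs, was 33.7 and 39.5 for Ccl8 and 31.8 and 63.0 for the acute-phase gene Saa3, where counting noise alone gives about 1. Apoe had 23.8 and 21.9, Ccl12 14.6 and 12.3, Spp1 12.5 and 14.2 and Hmox1 12.5 and 13.5. Folr2, by contrast, had 1.35 and 1.32, with a mean of 1.94 and 2.12 UMIs. The Ccl8 excess was thus carried by part of the cells: after thinning its quartiles were 1 and 16 UMIs in the first library and 2 and 20 in the second, and the 5 cells with the most held 15.3% and 10.1% of its UMIs.

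**Figure D4:**
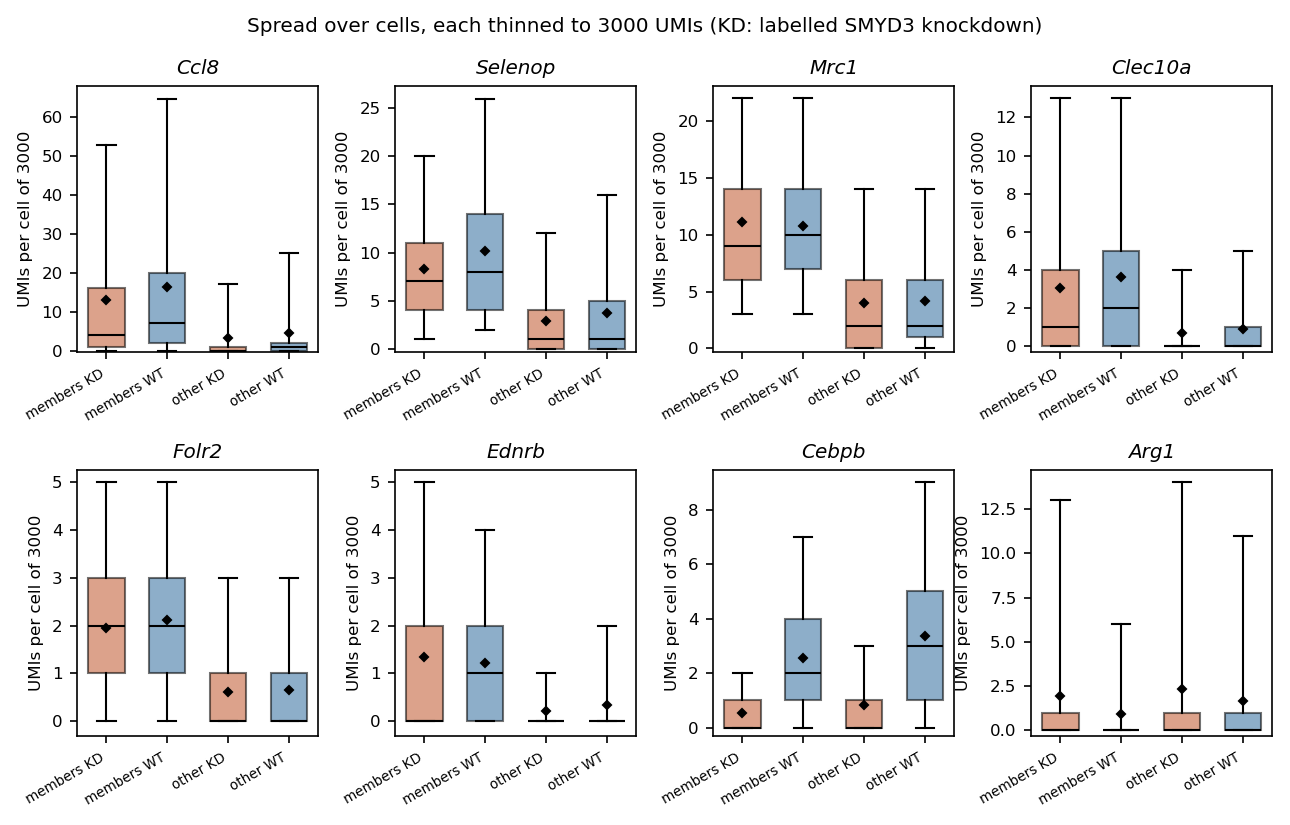
UMIs per cell, with every cell thinned to 3000 UMIs, of Ccl8, Selenop, Mrc1, Clec10a, Folr2, Ednrb, Cebpb and Arg1 in the Lyve1 Cd163 cells (members) and the other Csf1r cells of each library; boxes are quartiles, whiskers the 5th to 95th percentile and diamonds means. Ccl8 spanned 0 to 52.8 and 64.7 UMIs between those percentiles in the Lyve1 Cd163 cells, while Folr2 spanned 0 to 5.

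Part of the Lyve1 Cd163 cells also carried the Arg1 and Spp1 pair. In all, 121 cells (29.8%, 25.4 to 34.5) of the library labelled SMYD3 knockdown and 93 cells (16.5%, 13.5 to 19.8) of the library labelled WT had at least 2 UMIs of each, a difference of 13.3 points (7.91 to 18.7). In the other Csf1r cells the shares were 34.5% and 27.5%. The cells with this pair held less Ccl8, at 3761 and 2547 CPM against 5191 and 5989 CPM in the cells without it. They held more Fn1, fibronectin, at 1420 and 1110 CPM against 575 and 259 CPM, and more of the glycolytic gene Gapdh, at 1299 and 1018 CPM against 784 and 498 CPM. The Cx3cr1 and Vcam1 pair was carried by 4.68% and 5.15% of the Lyve1 Cd163 cells and by 8.04% and 6.35% of the other Csf1r cells.

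Over single cells, the summed resident list and Cd163 had a Pearson correlation of 0.46 and 0.23, and the resident list and Lyve1 of 0.17 and 0.08. The hypoxia list was correlated with the complement list at -0.48 and -0.38 and with the monocyte list at 0.38 and 0.25. These describe 406 and 563 cells of 1 library each, which share their library and its depth, and members of the rule are limited in Lyve1 and Cd163 from below.

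Between the libraries, 63 of 5970 genes measured in the Lyve1 Cd163 cells (1.06%) had at least 1.5 times the WT-labelled level in the library labelled SMYD3 knockdown and 122 (2.04%) stood at least 1.5-fold below it. The median log2 difference over these genes was 0.01. Of the 63, 9 were genes of pancreatic enzymes, whose list summed to 515 and 42.9 CPM in the Lyve1 Cd163 cells and 458 and 20.4 CPM in the other Csf1r cells. Of the 63, 50 were also higher in the other Csf1r cells, 18 of them by 1.5-fold, and of the 122, 117 were also lower there, 46 of them by 1.5-fold. Of the marker genes outside the rule, Ccl8, Selenop and Ednrb were between 0.841 and 0.964 times the level of the library labelled WT and Clec10a was at 0.757 times that level, while Folr2, Mrc1 and Maf were between 0.953 and 1.04 times. Smyd3, the targeted gene, was at 9.18 and 9.35 CPM, but the design places the knockdown in the tumour cells, so its level in macrophages does not check the labels. Cd47 was at 366.5 and 319.6 CPM and its receptor gene Sirpa at 375 and 354 CPM.

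Cebpb, for the transcription factor C/EBP beta, was at 172 and 775 CPM, a ratio of 0.222 (0.208 to 0.237), and at 251 and 1013 CPM in the other Csf1r cells, a ratio of 0.248. After thinning to 3000 UMIs it was seen in 38.4% and 84.2% of the Lyve1 Cd163 cells, and without thinning in 84.5% and 98.6%. Neutrophils thinned to 1000 UMIs had a Cebpb UMI in 58.7% and 92.3% of cells, so the direction was the same in neutrophils. Sec61g, at 38.6 and 87.5 CPM, Chaserr, at 21.9 and 50.3 CPM, and Ppp1r14b, at 189 and 369.7 CPM, had ratios of 0.442, 0.435 and 0.512, beside 0.471, 0.474 and 0.429 in the other cells.

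Il1b, Cd83 and most stress genes were also lower in the first library. Beside the list counts here, 1.06% of all 5970 genes were 1.5-fold higher and 2.04% 1.5-fold lower. Of 10 pro-inflammatory genes measured, 2 were 1.5-fold lower and 0 higher. The cytokine gene Il1b was at 183 and 363 CPM, a ratio of 0.504, beside 0.914 in the other cells, and Cd83 at 48.5 and 107 CPM, a ratio of 0.452 beside 0.746. Hspa1b, an inducible heat shock protein gene, was at 332 and 656 CPM and Epc1 at 26.9 and 54.0 CPM. Of 19 dissociation and heat stress genes, 18 were lower and 8 of them 1.5-fold, with a median log2 difference of -0.52 beside -0.19 in the other cells. The immediate early gene Fos was at 1482 and 2455 CPM and Dusp1 at 1045 and 1729 CPM. Genes of this list are known to respond to tissue dissociation, and the handling of each tumour was not measured, so its part in these differences was not tested. Cxcl13, at 13.9 and 63.4 CPM, and the interferon-induced Rsad2, at 25.4 and 75.2 CPM, rested on few cells, since the top 5 cells held 88.4% and 72.4% of Cxcl13 UMIs and 72.8% and 85.4% of Rsad2 UMIs. Rgs2, a regulator of G protein signalling, was at 131 and 222 CPM, a ratio of 0.589 beside 1.02 in the other cells, and the matrix gene Spon1 at 40.1 and 58.4 CPM, a ratio of 0.687 beside 1.22.

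In the other direction, Arg1, arginase 1, was at 708 and 315 CPM, a ratio of 2.25 (2.14 to 2.36), beside 1.47 in the other cells. Fn1 was at 886 and 454 CPM, a ratio of 1.95 (1.87 to 2.04), beside 0.923. Without the cells that carried the Arg1 and Spp1 pair, Fn1 was at 575 and 259 CPM and Arg1 at 205 and 73.0 CPM. Both thus remained higher, though the cell choice by Arg1 fixes part of the latter. With cells thinned as for the Ccl8 share, Arg1 had a mean of 0.333 and 0.0417 UMIs in 90 and 120 T cells. Its mean was 0.156 and 0.127 UMIs in neutrophils and 0.633 and 0.231 in all Lyve1 Cd163 cells. The part of RNA outside cells in the Arg1 difference was not tested. The tetraspanin gene Cd9 was at 152 and 63.7 CPM, the fatty acid binding protein gene Fabp5 at 703 and 435 CPM and Mmp12 at 280.3 and 175 CPM, with ratios of 2.39, 1.62 and 1.60 beside 1.36, 0.941 and 0.922. For Mmp12, 50.8% and 60.9% of its UMIs lay in the top 5 cells, and its log2 difference of 0.66 was 0.02 with at least 3 UMIs of Lyve1 and Cd163 and 0.18 without the cells holding UMIs of other cell type lists. The log2 difference of Fabp5, 0.69, was 0.34 without those cells and 0.46 with at least 3 UMIs of each gene. Thrombospondin 1 (Thbs1) was at 98.2 and 38.3 CPM, with 53.1% and 43.2% of its UMIs in the top 5 cells. Ctsk had a ratio of 1.18 beside 0.648. Ch25h, which makes 25-hydroxycholesterol, was at 156 and 70.1 CPM, Ndufab1 at 136 and 83.3 CPM and Pdpn at 195 and 121 CPM. S100a9, at 69.7 and 22.6 CPM, is a neutrophil gene, and the neutrophil list was also higher in the other cells of that library; its source was not tested.

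**Figure D5:**
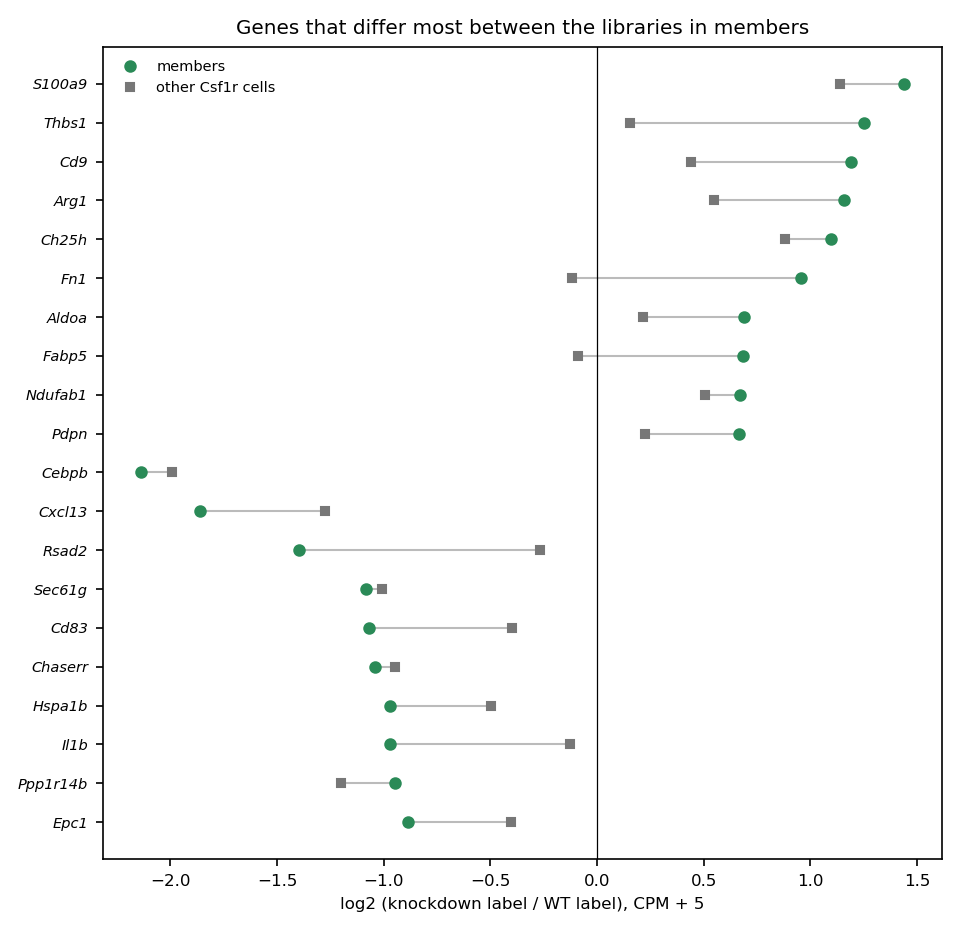
Log2 ratio of the library labelled SMYD3 knockdown to the library labelled WT, on CPM plus 5, for the 10 genes named as higher and the 10 named as lower in the Lyve1 Cd163 cells, with the same ratio in the other Csf1r cells. Cebpb, Sec61g, Chaserr and Ppp1r14b lay at similar values in both kinds of cell, while Fn1 and Fabp5 were above 0 in the Lyve1 Cd163 cells and below it in the others.

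Over all 5970 genes, 52.4% had the higher value in the first library, 1.06% were 1.5-fold higher there and 2.04% 1.5-fold lower. By list, 16 of 18 measured hypoxia and glycolysis genes were higher and 5 of them 1.5-fold, with a median log2 difference of 0.35 beside 0.13 in the other cells. Aldoa was at 438 and 269.8 CPM, a ratio of 1.62, and Gapdh at 973 and 617 CPM, a ratio of 1.58. All 12 measured cholesterol synthesis genes were higher, none by 1.5-fold, with a median of 0.31 beside 0.25. Of 27 transcription factor genes, 21 were lower and 4 of them 1.5-fold, with a median of -0.15 beside -0.12 in the other cells. Of 26 resident list genes, 3 were 1.5-fold higher and 0 lower, with a median of 0.01. Of 6 MHC class II genes, 5 were higher, none by 1.5-fold, with a median of 0.36 beside -0.10, but 67.0% and 47.8% of H2-Aa UMIs lay in the top 5 cells. Without the cells that carried the Arg1 and Spp1 pair the MHC class II median was -0.45 and H2-Aa was at 94.2 and 162 CPM, so the direction depended on those cells.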

How the data were processed

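UMI counts per gene and barcode were deposited by the authors as 1 matrix of both libraries, made with Cell Ranger 7.1.0 on mm10, per the submitters' processing notes; the annotation release and any depth equalisation are not given in the sources used here. Each barcode's suffix gave its library, and the set of sequences under a suffix matched the set the deposited cell table lists for 1 library. Totals were 95803321 UMIs (library labelled SMYD3 knockdown) and 91523767 UMIs (library labelled WT). Counts were summed over cells of a group and library and divided by the group's total (CPM). Between groups of cells, a gene counted as measured where the higher group reached 20 CPM in both libraries. Between the libraries, it counted where the higher library reached 20 CPM and 20 UMIs. Folds are CPM ratios; log2 values used a pseudocount of 5 CPM. Intervals were exact binomial, Newcombe or conditional binomial at 95%. With 1 library a group no test was made.

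Named genes were the markers, the rule's genes, the 15 highest and 15 lowest differences from other Csf1r cells (at least 50 CPM), the 10 on each side between libraries, 5 on each side by ratio of ratios, up to 4 per list and 10 by Fano factor. The members and lists were chosen with earlier results of these data known. Cells were thinned to 3000 or, for free RNA, 1000 UMIs. Positions came from GENCODE vM21, which matched 52081 of 55357 gene identifiers (94.1%). Scripts used Python 3.11.15, numpy 2.4.6, scipy 1.17.1, pandas 2.3.3 and matplotlib 3.10.9 and were tested on simulated data. Some genes are not reported here.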

Additional observations from a re-analysis of the deposited data

Results flagged for a closer look

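For 9 of 67 named genes the library labelled SMYD3 knockdown differed from the library labelled WT by at least 1.2-fold in the Lyve1 Cd163 cells and in the other direction in the other Csf1r cells, without the minimum of 20 CPM. With 1 library a group the difference between the cell groups was not tested. Higher in the Lyve1 Cd163 cells were Fn1 (ratio 1.95 beside 0.923), Fabp5 (1.62 beside 0.941), Mmp12 (1.60 beside 0.922), Saa3 (1.20 beside 0.930) and H2-Aa (1.35 beside 0.857). So were Hp (1.36 beside 0.962) and the cell cycle gene Prc1 (2.07 beside 0.944), at 16.6 and 12.2 CPM and at 3.86 and 1.87 CPM, both below the minimum of 20 CPM used to count a gene as measured. The limit on Mki67 and Top2a bears on Prc1. The Mmp12 log2 difference of 0.66 was 0.02 with at least 3 UMIs of Lyve1 and Cd163, and 50.8% and 60.9% of its UMIs lay in the top 5 cells. For H2-Aa, 67.0% and 47.8% of the UMIs lay in the top 5 cells. Without the cells that carried the Arg1 and Spp1 pair H2-Aa was at 94.2 and 162 CPM, so its direction was reversed. Lower were Rgs2 (0.589 beside 1.02) and Spon1 (0.687 beside 1.22).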

How the results depend on the processing

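The share of Lyve1 Cd163 cells was lower in the library labelled SMYD3 knockdown in every setting run. Its values for the 2 libraries were 4.37% and 5.40% after thinning before the rule (difference -1.04 points), 12.3% and 15.1% with at least 1 UMI of each gene, 5.65% and 7.72% with at least 3, and 8.70% and 11.5% with no cycling limit. Without cells holding UMIs of other cell type lists the first share was 6.41% and the difference -3.82 points. Such cells are called other-type cells below for short. Pdpn held the most of these UMIs in the Lyve1 Cd163 cells, so cells could be left out for Pdpn alone. Settings added after the data were seen gave 17.4% and 23.0% for Lyve1 alone (difference -5.59 points), 13.5% and 16.3% for Cd163 alone, and 7.93% and 10.7% without other-type cells when Pdpn was not counted.

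Counts of genes followed the filters. Genes 1.5-fold higher and lower between libraries, 63 and 122 as reported, were 294 and 304 after thinning, 24 and 67 at 50 CPM and 1067 and 1547 at 5 UMIs with no CPM minimum. Those higher were 99 with each cell weighing the same and 103 without other-type cells. Genes 2-fold higher and lower than the other Csf1r cells, 125 and 266 as reported, were 83 and 135 at 50 CPM and 311 and 2124 at 5 UMIs with no CPM minimum. Those higher were 334 against other cells with no Lyve1 and no Cd163 UMI, a setting added later.

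Between libraries, the interferon list median of 0.05 became -0.0053 with equal cell weight and -0.029 without the Arg1 Spp1 cells, the MHC class II median -0.45 without those cells and -0.019 without other-type cells when Pdpn was not counted, and Ctsk -0.21 without other-type cells. The cause of each was not tested.

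No paired analysis was possible because each group has 1 library and the labels give no shared replicate numbers. Depth sets which cells pass a 2 UMI minimum, and a count of 0 or 1 does not show that a cell lacks a gene. Precision between tumours is unknown.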

Other observations

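A small set of cells with C-type lectin genes of the Cd209 family stood out after the values were seen. Cd209f, a lectin gene known from resident macrophages of several organs, had 140 and 40 UMIs in 23 and 13 of the Lyve1 Cd163 cells, and its neighbour Cd209g had 136 and 10 UMIs in 19 and 5 cells. The members of this gene family are similar in sequence, so their counts are uncertain. At least 2 summed UMIs of the pair were held by 19 and 8 of the Lyve1 Cd163 cells and by 10 and 3 of the far more numerous other Csf1r cells. The phosphatidylserine receptor gene Timd4 was seen in 11 of those 19 and 1 of those 8 cells.

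The Cd209f Cd209g cells carried 6746 and 5167 CPM of Ccl8, 927 and 956 CPM of Folr2 and 493 and 607 CPM of Cd209d, with 21.7 and 73.6 CPM of H2-Aa. Their median depth was 7651 and 6449 UMIs, below that of the Lyve1 Cd163 cells at large. Marco, a scavenger receptor gene, had 72 UMIs in the library labelled SMYD3 knockdown, all in 1 cell that was not among them. The number of these cells is too small for the libraries to be compared.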
